A study of Mus musculus with 9 samples.

Results

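The genes described here sense or cleave peptidoglycan, the polymer of the bacterial cell wall: the peptidoglycan recognition proteins Pglyrp1, Pglyrp2, Pglyrp3 and Pglyrp4, the intracellular receptors Nod1 and Nod2, and the kinase Ripk2 that both receptors use. They were taken by symbol and make up 7 of the 24505 rows of the study's table of nascent transcription, and 5 of the 16563 rows that were tested, since Pglyrp3 and Pglyrp4 stayed under the minimum level in all 6 libraries. Of the regions listed with different H3K27me3, the repressive histone modification written by the Polycomb complex PRC2, 3 of 13607 higher in the stem cell culture and 2 of 35798 higher in the M cell culture carried the name of one of these genes. The set was chosen by the GRO-seq values of the M cell culture against the other cultures, in which Pglyrp2 and Nod2 were higher, so the values of all 7 genes against the M cell culture are given as a description, with no test.

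The study grew mouse duodenum as mini-guts, epithelial cultures that form crypt-like structures in a dish, and compared 3 cultures named after what was added to them. The culture labelled RANKL, named after the cytokine that drives M cell formation, stands for the intestinal M cell; that labelled ENRI for the enterocyte; and that labelled WENRC for the intestinal stem cell. The letters of ENRI and WENRC are not spelled out in the labels, and neither strain, genotype, age nor culture time is given. Global run-on sequencing (GRO-seq), which counts RNA being made by engaged polymerase rather than RNA that has accumulated, was done on 2 libraries of each culture. The ENRI and WENRC libraries came from mouse 1 and mouse 2, whereas the RANKL libraries carry no mouse number and were described in the table header as combined reads of a resequencing, so an effect of that resequencing cannot be told apart from one of the culture. H3K27me3 was measured by ChIP-seq on 2 RANKL libraries, pooled by the authors to 32.7 M tags, and 1 WENRC library of 36.3 M tags, depths worked out from the tags and the tags per 10 M listed for each region; no ENRI library was measured. Nothing states that the RANKL libraries came from separate cultures, so p-values measure the spread between these libraries, which may be technical.

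M cells are epithelial cells over lymphoid follicles that carry bacteria and particles from the gut lumen to the immune cells beneath. Peptidoglycan recognition proteins are secreted or membrane-bound relatives of bacteriophage lysozymes; Pglyrp2 is an amidase that cuts the peptide from the sugar chain, while Pglyrp1, Pglyrp3 and Pglyrp4 bind peptidoglycan and kill bacteria. Nod1 recognises fragments containing diaminopimelic acid and Nod2 recognises muramyl dipeptide, both in the cytosol. Each then recruits Ripk2, and ubiquitin chains placed on Ripk2 by ligases such as Xiap lead to the TAK1 and IKK kinases and to NF-kB.

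Markers of M cells were higher in the M cell culture, which also held markers of other epithelial cells. M cell markers summed to between 4958 and 5326 on the linear scale in the RANKL libraries. Their sums were 251 to 821 in ENRI and 642 to 668 in WENRC. Of the 8, 6 were higher in RANKL in both comparisons, and Aif1 and Tnfrsf11b were not called. Sox8 and Gp2, among the 6, were tested only because the RANKL libraries were above the minimum level, so their calls could hardly go the other way. Enterocyte markers summed to 25263 and 27857 in RANKL, 58023 and 104680 in ENRI, and 10210 and 4396 in WENRC. Stem cell markers summed to 12312 and 13104 in RANKL, 2424 and 3227 in ENRI, and 15400 and 16928 in WENRC. Of the 7 stem cell markers, 5 were called higher in RANKL than in ENRI. Against WENRC, 1 was higher in RANKL (Tnfrsf19, 1.69) and 1 lower (Lgr5, -3.02). Lgr5 averaged 8.80 in RANKL, 8.70 in ENRI and 11.82 in WENRC, so the sums do not describe each marker. Of 11 leukocyte markers, 6 (Cd3e, Ly6g, Mpo, Elane, S100a8 and S100a9) were under the minimum in every library, none of the 5 tested was called against RANKL, Cd68 was higher in WENRC than in ENRI (0.92, SE 0.15, limma adjusted p = 0.0174), and the sums of the 11 were 434 to 514 in RANKL, 435 to 438 in ENRI and 557 to 619 in WENRC. The 7 goblet cell markers summed to 13041 and 12635 in RANKL, 14791 and 10270 in ENRI, and 3732 and 1840 in WENRC; 1 was higher in RANKL than in ENRI, 4 were higher in RANKL than in WENRC, and 5 were lower in WENRC than in ENRI. The marker calls between WENRC and ENRI ignore the pairing by mouse, and a fit of those 2 cultures alone called 0 of all tested genes. All 5 fibroblast markers were under the minimum in every library. In such bulk cultures, fewer cells of a type and less RNA per cell cannot be told apart.

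Promoter sequence was matched by symbol for 4 of the 7 genes. The sequences below are the 250 bases before a start site from RefSeq on GRCm38.p6, a later build than the mm9 coordinates of the deposited files, and are shown for the 2 genes whose transcription set the M cell culture apart and for Pglyrp1, the other family member above the minimum level. Each runs 5′ to 3′ on the gene's own strand. Capitals mark matches, on either strand, to 4 motifs: GAGGAA, the Ets core with a flank favoured by Spi-B; AAGGTCA, the extended half-site of the Esrrg family; ACAAT, the Sox core; and GGGNNNNNCC, the frame of an NF-kB site. None of the capitals in these 3 sequences overlap.
Pglyrp2, chr17:32420976-32421225, minus strand: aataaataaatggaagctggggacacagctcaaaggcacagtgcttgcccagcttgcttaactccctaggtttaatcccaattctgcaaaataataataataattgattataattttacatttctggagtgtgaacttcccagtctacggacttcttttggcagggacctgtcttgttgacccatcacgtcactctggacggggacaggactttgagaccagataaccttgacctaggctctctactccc
Nod2, chr8:88647097-88647346, plus strand: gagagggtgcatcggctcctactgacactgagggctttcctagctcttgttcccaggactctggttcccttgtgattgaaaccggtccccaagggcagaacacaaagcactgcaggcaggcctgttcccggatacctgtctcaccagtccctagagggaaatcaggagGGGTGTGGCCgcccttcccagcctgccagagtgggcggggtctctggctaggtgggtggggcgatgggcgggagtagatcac
Pglyrp1, chr7:18884440-18884689, plus strand: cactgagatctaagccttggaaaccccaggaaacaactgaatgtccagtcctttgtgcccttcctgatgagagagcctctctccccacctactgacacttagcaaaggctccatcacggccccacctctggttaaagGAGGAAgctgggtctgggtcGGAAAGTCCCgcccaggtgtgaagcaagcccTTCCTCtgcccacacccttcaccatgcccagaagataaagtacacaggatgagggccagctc
The Pglyrp2 window belongs to a start site 3244 bp inside the 5′ end of the gene. Over the full 300 bases, which add 50 after the start, it held none of the 4 motifs, 5 CpG dinucleotides and 45.3% G+C, where the median of all 32851 windows of this length was 7 CpG and 52.7%. The Nod2 window held 9 CpG, 61.0% G+C and 1 match, GGGTGTGGCC, to the NF-kB frame. The Pglyrp1 window held 2 matches to the Ets core, GAGGAA and its reverse complement TTCCTC, and 1 to the NF-kB frame, GGAAAGTCCC read on the other strand. These motifs are common: 28.3% of all windows held the Ets core, 4.72% the Esrrg half-site, 31.0% the Sox core and 50.8% the NF-kB frame. A match describes letters only, and a window without one says nothing about the factor.

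Pglyrp2 (NM_001271476, mm9 chr17:32549406-32561112, minus strand, 11706 bp) was transcribed in the M cell culture and close to the floor in both others. On the deposited log2 scale the RANKL libraries read 10.64 and 10.76, the ENRI libraries 2.62 and 4.10, and the WENRC libraries 2.60 and 3.35. The RANKL values lay 6.54 above the highest ENRI value and 7.29 above the highest WENRC value, whereas the ENRI and WENRC values overlapped. The means were 10.70 ± 0.08 in RANKL, 3.36 ± 1.05 in ENRI and 2.98 ± 0.53 in WENRC (SD, n = 2 libraries each), a log2 difference of 7.34 against ENRI and 7.72 against WENRC. Among all rows not at 0 in every library, Pglyrp2 stood at the 93.4th percentile in RANKL, the 26.9th in ENRI and the 25.0th in WENRC. Of its 6 libraries, 4 reached the minimum of 3.32 on the log2 scale, which is 10 on the linear scale. These were both RANKL libraries, the ENRI library of mouse 2 (4.10) and the WENRC library of mouse 2 (3.35). The last 2 meet the filter without RANKL, though the WENRC value lay barely above the minimum.

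The size of that difference depends on which deposited values are used, and the cause was not tested. The authors' deposited table gives log2 fold changes of 9.03 against ENRI and 14.01 against WENRC for Pglyrp2, larger than the differences of the deposited library values. Between the stem cell and enterocyte cultures, a comparison that played no part in choosing the genes, Pglyrp2 was not called: WENRC minus ENRI was -0.38 (SE 0.51, 95% interval -1.63 to 0.86, limma, Benjamini-Hochberg adjusted p = 0.664). The authors' deposited table gives -4.99 for the same comparison with an adjusted p of 1.0. The interval covers more than 1 log2 unit below 0, so these libraries do not show whether Pglyrp2 differed between the 2 cultures in which it was low.

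**Figure D1:**
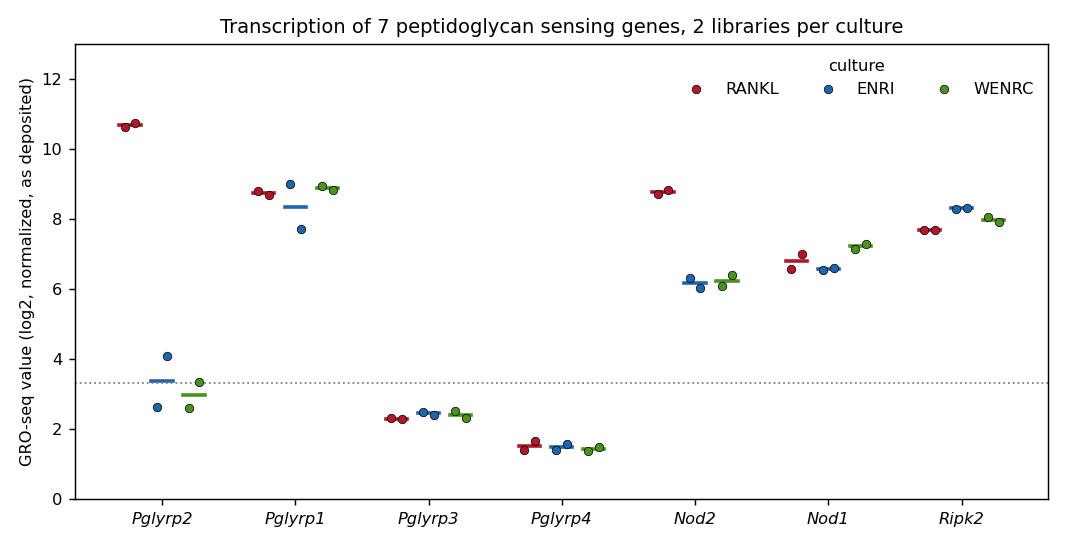
GRO-seq value (log2, normalized, as deposited) of each of the 7 genes, with 1 point per library, a short bar at the mean of the 2 libraries of each culture, and a dotted line at the minimum level of 3.32. Pglyrp2 and Nod2 show the RANKL points well above the others, and Pglyrp3 and Pglyrp4 lie under the line throughout.

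Pglyrp1 (NM_009402, mm9 chr7:19470039-19475787, plus strand, 5748 bp), a bactericidal member of the family known from neutrophil granules, was transcribed in every culture. It read 8.81 and 8.69 in RANKL, 9.0 and 7.71 in ENRI, and 8.93 and 8.83 in WENRC. The ENRI library of mouse 2 was the low one, and the RANKL values lay between the 2 ENRI values. The means were 8.75 ± 0.09, 8.36 ± 0.91 and 8.88 ± 0.07 (SD, n = 2 each), so that RANKL differed by 0.39 from ENRI and by -0.14 from WENRC. WENRC minus ENRI was 0.53 (SE 0.39, 95% interval -0.43 to 1.49, limma adjusted p = 0.412), and it was -0.07 in mouse 1 and 1.12 in mouse 2. Without the ENRI library of mouse 1, the same limma comparison gave 1.17 with an adjusted p of 0.00119, and without that of mouse 2 it gave -0.11, so the value rests on which ENRI library is kept. Mpo, Elane, S100a8 and S100a9, markers of neutrophils and related myeloid cells, were under the minimum in every library, whereas other myeloid markers of the list were above it in all 6: Itgam read 4.70 to 5.77, Adgre1 3.94 to 5.88, Csf1r 6.78 to 7.51 and Cd68 7.51 to 8.52. The part of such cells in the Pglyrp1 values was not tested.

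Per kb of gene, Pglyrp1 stood at 6.22 in RANKL and Pglyrp2 at 7.15 on the log2 scale; in ENRI these levels were 5.83 and -0.19, and in WENRC 6.36 and -0.57. Pglyrp2 therefore had the higher per-kb value of the pair in the M cell culture and much the lower in the other cultures. How the deposited values scale with read counts is not stated, so levels of different genes compare only roughly. Pglyrp3 (NM_207247, chr3:91818505-91835506, plus strand), a bactericidal protein known from skin and other stratified epithelia, read 2.30 and 2.29 in RANKL, 2.48 and 2.41 in ENRI, and 2.51 and 2.31 in WENRC. Pglyrp4 (NM_001165968, chr3:90530828-90545439, plus strand), a relative with a similar role, read 1.38 and 1.65, 1.40 and 1.58, and 1.38 and 1.48. Per kb these 2 genes lay between -2.44 and -1.64 in every culture. Both were under the minimum in all libraries, so their transcription was not detectable above it and no difference was tested.

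Nod2 (NM_145857, mm9 chr8:91171246-91212373, plus strand, 41127 bp), the receptor for muramyl dipeptide, was also highest in the M cell culture. It read 8.72 and 8.83 in RANKL, 6.31 and 6.03 in ENRI, and 6.08 and 6.40 in WENRC. The RANKL values were 2.41 above the highest ENRI value and 2.32 above the highest WENRC value, and those of ENRI and WENRC overlapped. The means were 8.77 ± 0.08, 6.17 ± 0.20 and 6.24 ± 0.23 (SD, n = 2 each), a log2 difference of 2.61 against ENRI and 2.54 against WENRC, where the authors' deposited table gives 3.35 and 3.29. WENRC minus ENRI for Nod2 was 0.07 (SE 0.20, 95% interval -0.42 to 0.57, limma adjusted p = 0.847). Unlike Pglyrp2, Nod2 was above the minimum in all 6 libraries.

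Paneth cells at the crypt base are known to express Nod2, and some of their markers moved the same way. The 6 Paneth markers summed to 2083 and 1850 in RANKL, 437 and 888 in ENRI, and 600 and 796 in WENRC on the linear scale. In limma, 2 of the 6, Mmp7 and Defa24, were higher in RANKL in both comparisons, while Lyz1, Ang4, Itln1 and Pla2g2a were not called; Defa24 has near-identical copies, so its value is uncertain. The part of Paneth cells in the Nod2 values was not tested.

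Nod1 (NM_172729, mm9 chr6:54873936-54922606, minus strand, 48670 bp), the receptor for diaminopimelic acid fragments, had its highest values in the stem cell culture. It read 6.57 and 7.01 in RANKL, 6.53 and 6.61 in ENRI, and 7.15 and 7.29 in WENRC. The WENRC values lay above all others, and 1 RANKL value fell between the 2 ENRI values. RANKL minus ENRI was 0.22 and RANKL minus WENRC -0.43. WENRC minus ENRI for Nod1 was 0.65 (SE 0.21, 95% interval 0.14 to 1.16), 0.62 in mouse 1 and 0.68 in mouse 2. Its unadjusted limma p was 0.0210 and its adjusted p 0.0902, which did not pass, and over the alternatives tried the adjusted p ran from 0.0580 to 0.336.

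Ripk2 (NR_138102, mm9 chr4:16049888-16090790, minus strand, 40902 bp), the kinase through which both receptors signal, had its lowest values in the M cell culture. It read 7.69 in both RANKL libraries, 8.28 and 8.32 in ENRI, and 8.04 and 7.92 in WENRC. None of the 3 cultures overlapped another, with ENRI highest and RANKL lowest. RANKL minus ENRI was -0.61 and RANKL minus WENRC -0.29, and WENRC minus ENRI for Ripk2 was -0.32 (SE 0.14, 95% interval -0.67 to 0.03, limma adjusted p = 0.187). Per kb on the log2 scale the value of the receptor Nod2 was 3.41 against 2.34 for Ripk2 in RANKL. It was 0.81 against 2.95 in ENRI and 0.88 against 2.63 in WENRC. Such levels of different genes compare only roughly.

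**Figure D2:**
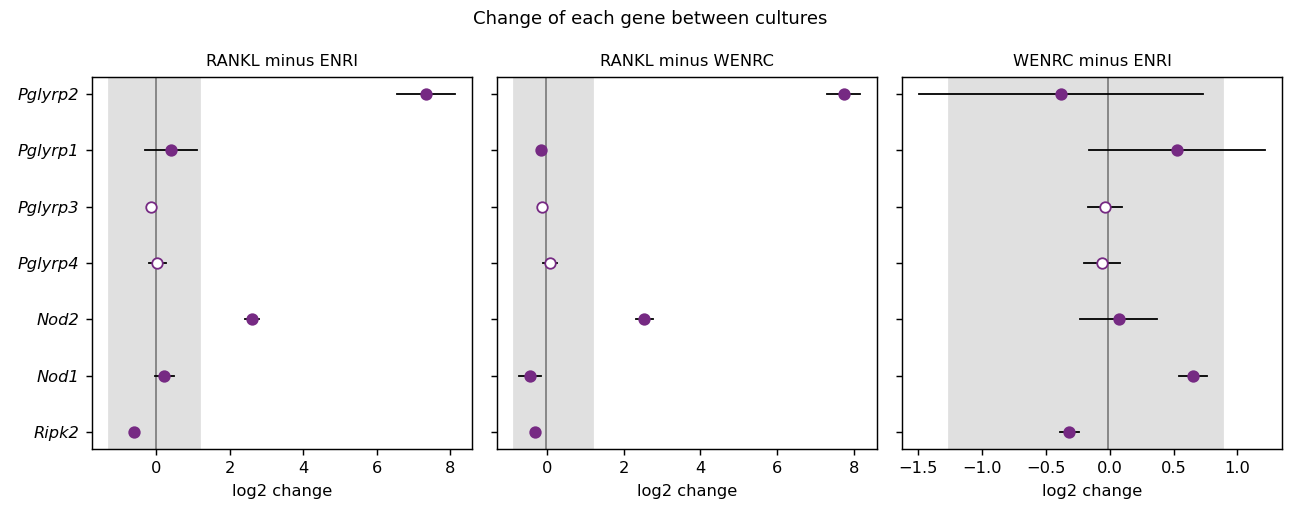
Log2 change of each gene between cultures, with 1 panel per comparison and separate horizontal scales. The point is the difference of means (open where the gene was under the minimum), the line spans the 4 differences between single libraries, and the grey band holds the central 90% of all tested genes; in the RANKL comparisons Pglyrp2 and Nod2 lie outside it.

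Counted over the 5 tested genes, RANKL and ENRI values did not overlap for 3 (Pglyrp2, Nod2 and Ripk2), where 64.7% of all tested genes did not overlap. RANKL and WENRC values did not overlap for all 5, against 68.6% of all tested genes. These comparisons chose the genes, and nothing is read from the counts. WENRC and ENRI values did not overlap for 2 of 5 (Nod1 and Ripk2), against 58.5%, a share close to the background. Of the 5, limma called 0 between WENRC and ENRI, where it called 14.6% of all tested genes; 1 of the 5 (Nod1) had an unadjusted p under 0.05, and the authors' deposited table called 0 of them against 12.5% of tested genes. Without the ENRI library of mouse 1 the count was 2, Pglyrp1 at 1.17 and Pglyrp2 at -1.12. The central 90% of all tested genes lay between -1.29 and 1.18 for RANKL minus ENRI, between -0.85 and 1.20 for RANKL minus WENRC, and between -1.26 and 0.88 for WENRC minus ENRI.

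The H3K27me3 regions named for Pglyrp2 were higher in the stem cell culture than in the M cell culture. The first covered the 3′ end of the gene (mm9 chr17:32549297-32550562, 1265 bp, annotated as a non-coding exon) with 46.8 depth-scaled WENRC tags against 10 RANKL tags. The second lay in an intron (chr17:32551173-32554151, 2978 bp) with 142.2 against 44 tags. The third was intergenic, centred 2483 bp upstream of the listed start (chr17:32562973-32564217, 1244 bp), with 49.5 against 11. Their folds, as the authors give them, were 4.68, 3.23 and 4.50, with the authors' p-values per region of 1.05e-16, 9.77e-32 and 3.75e-17. These compare the tags of 1 WENRC library with 1 pool of RANKL libraries and hold no spread between replicates.

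Together the 3 regions held 238.5 scaled WENRC tags and 65 RANKL tags over 5487 bp, a ratio of 3.67. Per kb of region, WENRC tags stood at 37.0, 47.8 and 39.8 and RANKL tags at 7.91, 14.8 and 8.84 in the same order, so that the longest region also had the most tags per kb in both. Lengths like these were rare in the WENRC-higher table, where the median region was 500 bp and 3.84% reached 1000 bp; 0.279% were as long as the intronic region of Pglyrp2. Their folds were less unusual: the median of the table was 3.3, and 26.7% of its regions reached a fold of 4.

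Over the body of Pglyrp2 the WENRC-higher regions covered 4134 bp, or 35.3% of its length. Of the 16563 tested genes, 1836 had any such cover and 10, Pglyrp2 among them, had at least this share; the other 9 were 2150 to 5743 bp long. Among the 12093 tested genes of at least 10 kb, Pglyrp2 was the only 1 with this share. That cut lies between the lengths of the other 9 and that of Pglyrp2, so it fixes the outcome and nothing is read from it. As a count of bases, 105 tested genes had at least as many covered. Both body regions lay toward the 3′ end: no listed region fell in the 8821 bp from 32554152 to 32562972, which hold the listed start site of Pglyrp2. The intronic region was centred 8450 bp downstream of that start and 5258 bp downstream of the nearest inner start site, that of NM_001271477. A place without a listed region may still carry the mark, since the tables list only differences of at least 2-fold.

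**Figure D3:**
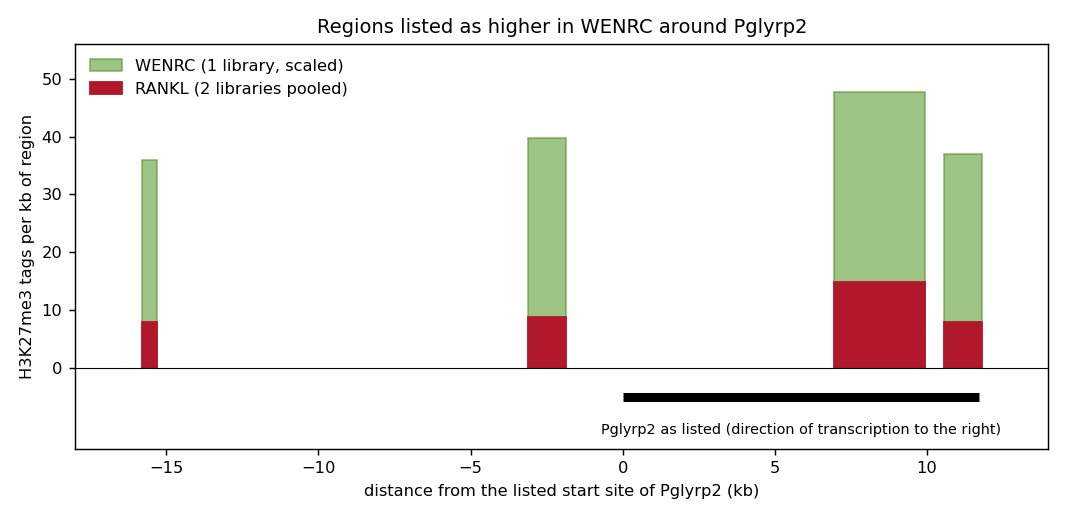
H3K27me3 tags per kb of region around Pglyrp2, against distance in kb from its listed start site, for regions higher in WENRC; green bars are the WENRC library (scaled to the RANKL depth) and red bars, drawn over them from 0, the pooled RANKL libraries. Both regions in the gene sit toward its 3′ end, another lies 2483 bp upstream, and a shorter region follows 15.6 kb upstream.

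Within 100 kb of Pglyrp2 there were 7 WENRC-higher regions and 0 RANKL-higher regions. The other 4 carried the names of the cytochrome P450 genes Cyp4f39 and Cyp4f17, were 500 bp long each, and were centred 15.6, 40.1, 60.5 and 68.1 kb upstream of Pglyrp2. The share of tested genes with at least 1 WENRC-higher region of their name was 23.3%, and 6.57% had at least 3. The genes Pglyrp1, Pglyrp3, Pglyrp4, Nod1, Nod2 and Ripk2 named none. Of the 7 genes, 2 named a RANKL-higher region, Pglyrp3 and Pglyrp4, and both regions were distant. Neither gene was tested. None of the 5 tested genes named such a region, against 32.3% of all tested genes. Within 5 kb of a start site, 1 of the 5 tested genes (Pglyrp2) had a WENRC-higher region, against 5.01% of all tested genes. A RANKL-higher region lay there at 0 of the 5, against 18.0%. The RANKL-higher region of Pglyrp3 (chr3:91746795-91747295) had 21 RANKL tags against 2.7 scaled WENRC tags and was centred 71460 bp upstream. That of Pglyrp4 (chr3:90516397-90516897) had 22 against 8.1 and was centred 14181 bp upstream.

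The listed genes within 20 kb of Pglyrp2 lie beyond its 3′ end and did not share its pattern. Cyp4f39 and Cyp4f17, named by the upstream regions, were not compared. Rasal3, a Ras GTPase-activating protein gene 8879 bp away on the same strand, read 3.50 and 3.64 in RANKL, 3.35 and 3.09 in ENRI, and 3.56 and 3.47 in WENRC, with limma adjusted p-values of 0.212 and 0.881 in the RANKL comparisons. A530088E08Rik, 7652 bp away, read between 0.90 and 1.16 in every library and was not tested. None of the 7 genes overlapped another listed gene. Beside Nod2, Snx20 (11218 bp away, opposite strand) was not called against RANKL, with adjusted p-values of 0.527 and 0.262. Cyld, a deubiquitinase that trims the ubiquitin chains of this pathway and starts 8553 bp from Nod2 on the same strand, was not called against ENRI (-0.20, limma adjusted p = 0.298) and was 0.74 higher in RANKL than in WENRC (adjusted p = 0.0189), smaller differences than those of Nod2. Ccdc61 ends 445 bp from Pglyrp1 on the opposite strand and read 8.91 and 7.69 in ENRI, so the mouse 2 library was the low one there too. Strand handling is not stated in the sources used here, so reads running past the end of one of these 2 genes cannot be told from reads of the other. Beside Nod1, Ggct (12482 bp away, same strand), and beside Ripk2, A530072M11Rik (466 bp away, opposite strand), were not called in any comparison.

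The tested genes most like Pglyrp2 in their pattern were Kcnj15, H2-M2, Adgrd1, Gp2 and Erv3, by the Euclidean distance between library values centred on each gene's mean over the 6 libraries. The distances were 1.21, 1.30, 2.11, 2.32 and 2.40 log2 units. Kcnj15, a potassium channel gene, averaged 10.03 in RANKL, 3.12 in ENRI and 3.24 in WENRC, and Gp2, the M cell receptor for bacterial fimbriae, 8.60, 3.14 and 2.98. Adgrd1, an adhesion G protein-coupled receptor gene, was also transcribed in the other cultures, at 13.21, 7.16 and 7.16. WENRC-higher H3K27me3 regions lay over the body with 5 kb flanks at 4 of these 5: Adgrd1 had 7, Erv3 had 3, and Kcnj15 and Gp2 had 1 each, where 14.1% of all tested genes had any; Gp2 also had 1 RANKL-higher region there. These genes were picked for being high in RANKL, so nothing is read from that count. By Pearson correlation over the same 6 libraries, 1 of the top 5 (Gp2) was shared with this list, so the choice of measure sets most of the names. For Nod2 the nearest genes were Bcl2a1a, an anti-apoptotic Bcl2 relative with near-identical copies, at a distance of 0.24, Psg28 at 0.32 and 1700011H14Rik at 0.33. For Nod1 they were Carns1, A330009N23Rik and BC035044, for Ripk2 Ppp1r15b, Coq7 and Scarna3b, and for Pglyrp1 Flot2, Tctn1 and Zmpste24.

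The wider pathway was read from 6 lists of 90 genes that exclude the 7, of which 79 were tested. Between RANKL and ENRI, 28 of the 79 were called by limma (12 higher and 16 lower in RANKL), or 35.4%, against 20.9% of all tested genes (10.4% higher and 10.5% lower). Between RANKL and WENRC 20 were called (17 higher and 3 lower), or 25.3%, against 12.1% (8.53% higher and 3.62% lower). Between WENRC and ENRI 23 were called (1 higher and 22 lower in WENRC), or 29.1%, against 14.6% (4.85% higher and 9.74% lower). The 3 comparisons share libraries pairwise and are not independent. The counts depend on single libraries: without either RANKL library they were 2 to 4, 0, and 0, without either WENRC library the second was 6 and the third 0 to 3, and without the ENRI library of mouse 1 they were 45, 34 and 44 (34 also for the second without that of mouse 2). With mouse as a block in the 4 ENRI and WENRC libraries the third count was 5 (Slc15a1, Gsdmd, Ccl20, Reg3b and Reg3g). In a fit of those 2 cultures alone it was 0. Without a RANKL library, the NF-kB target list alone kept any call in RANKL minus ENRI, 4 without the first and 2 without the second. No called gene changed sign under any of these fits or under 2 other scalings of the libraries.

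Adaptors, ubiquitin ligases and kinases downstream of the NOD receptors, 17 genes, held 4 that were higher in RANKL in both comparisons. Birc3, a ubiquitin ligase of the cIAP family that modifies Ripk2, read 11.79 and 11.78 in RANKL, 10.74 and 10.69 in ENRI, and 9.74 and 9.66 in WENRC. It rose by 1.07 against ENRI (SE 0.12, adjusted p = 0.00490) and by 2.09 against WENRC (SE 0.12, adjusted p = 0.00144), with no overlap between cultures. The related ligase Birc2 was higher by 1.05 and 1.22, the adaptor Traf3 by 1.0 and 1.33, and the adaptor Traf2 by 0.92 and 1.20. Tab3, a subunit that links TAK1 to ubiquitin chains, was lower in RANKL than in ENRI (-0.73, adjusted p = 0.0394). Of the list, 12 were not called against ENRI and 13 against WENRC, and its medians were 0.34 and 0.23. In WENRC against ENRI, 3 were lower: Chuk, which encodes a catalytic IKK subunit (-1.11), Birc3 (-1.02) and Tab3 (-0.98), with a median of -0.17. None of these genes was called with mouse as a block in the 4 ENRI and WENRC libraries. The median over all tested genes was -0.00, -0.01 and -0.01 in the 3 comparisons.

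Among 9 tested regulators of NOD signalling, Tnfaip3, the ubiquitin-editing enzyme A20 that restrains NF-kB, was higher in RANKL in both comparisons, by 1.29 (SE 0.33, limma adjusted p = 0.0411) and 2.13 (SE 0.33, adjusted p = 0.0144). Its libraries read 10.85 and 10.99 in RANKL, 10.13 and 9.13 in ENRI, and 8.62 and 8.96 in WENRC. Cyld was the other gene called, in RANKL against WENRC. In WENRC against ENRI, Trim27, a ubiquitin ligase that acts on Nod2, was 1.0 higher (limma adjusted p = 0.0238) and Cyld was lower (-0.95, adjusted p = 0.0127). That fit ignores the pairing by mouse. Neither gene was called with mouse as a block in the 4 ENRI and WENRC libraries, or in a fit of those 2 cultures alone. The list's medians were 0.08, 0.22 and -0.14, and the last became 0.04 under quantile normalization.

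Of the 11 genes for muropeptide transport and handling, 1 was higher and 3 lower in RANKL than in ENRI, and 2 were higher and 1 lower than in WENRC; 7 and 8 were not called. Slc15a3, an endolysosomal carrier that passes muramyl dipeptide to the cytosol, was higher in RANKL by 2.26 against ENRI (SE 0.28, limma adjusted p = 0.00569) and by 1.63 against WENRC (SE 0.28, adjusted p = 0.0187). It read 7.34 and 7.39 in RANKL, 5.45 and 4.76 in ENRI, and 5.59 and 5.89 in WENRC. Slc15a1, the peptide carrier of the enterocyte brush border, stood in between, at 7.42 and 7.58 in RANKL, 10.12 and 10.81 in ENRI, and 6.27 and 5.99 in WENRC. Its log2 change was -2.97 for RANKL minus ENRI, 1.37 for RANKL minus WENRC and -4.34 for WENRC minus ENRI, and all 3 passed. Lypd8, which keeps flagellated bacteria off the colon epithelium, was lower in RANKL than in ENRI (-3.23) and WENRC (-1.68). It was 1 of the 3 lower genes against ENRI and the only 1 against WENRC, although that role is not muropeptide handling. The lysosomal carrier Slc46a3 was lower in RANKL than in ENRI (-1.08). In WENRC against ENRI, Lypd8 (-1.54) and Slc46a3 (-0.94) were also lower, but neither was called with mouse as a block in 4 libraries. The summed enterocyte markers had the same order as Slc15a1: highest in ENRI, intermediate in RANKL and lowest in WENRC. Singly, 5 of the 9 were lower in RANKL than in ENRI, and 4 were higher than in WENRC. Fabp2, Rbp2, Lct and Mttp instead had lower means in RANKL than in WENRC, though none of these was called. The part of enterocytes in the Slc15a1 result was not tested. The medians were 0.28, 0.01 and 0.07, and the second became -0.11 under upper-quartile recentring.

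**Figure D4:**
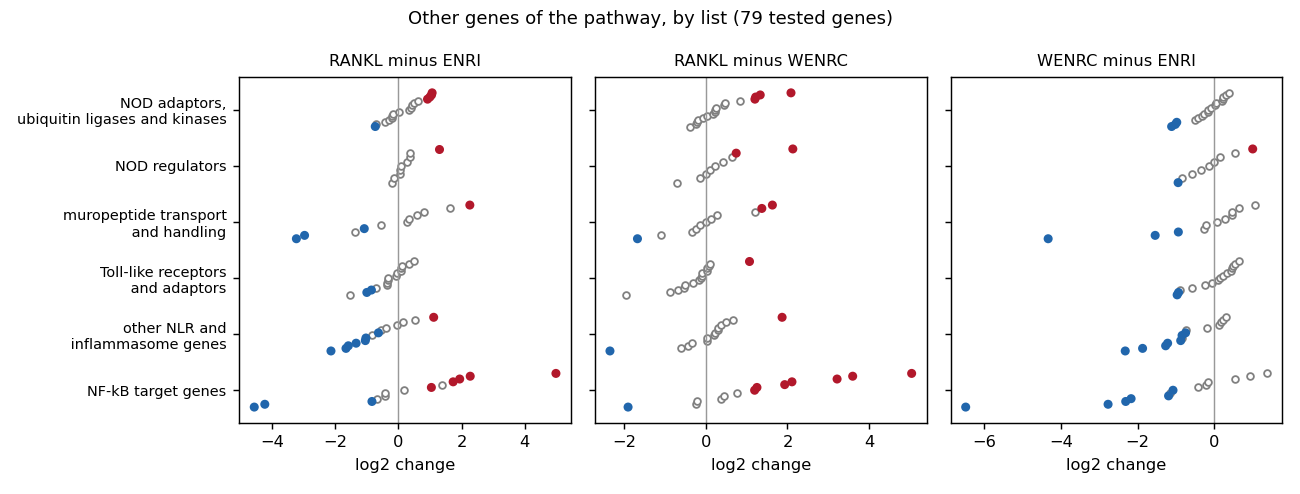
Log2 change of the 79 tested pathway genes by list, with 1 panel per comparison; filled red points were called higher and filled blue points lower in the first-named culture by limma, and open points were not called. In the fit of all 6 libraries the NLR and inflammasome list holds 7 lower genes in RANKL minus ENRI and in WENRC minus ENRI, and the NF-kB target list 7 higher genes in RANKL minus WENRC.

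Of 15 tested genes for Toll-like receptors and their adaptors, 2 were called between RANKL and ENRI and 1 between RANKL and WENRC. Between WENRC and ENRI 2 were called. The shares of all tested genes were 20.9%, 12.1% and 14.6% in the same order, and nothing is read from these small counts. The adaptor Ticam1 (-1.0, limma adjusted p = 0.0391) and the kinase Irak4 (-0.85, adjusted p = 0.0212) were lower in RANKL than in ENRI, and the kinase Irak2 was 1.05 higher in RANKL than in WENRC (adjusted p = 0.0136). No receptor of the list was called in these comparisons. In WENRC against ENRI, Irak2 (-0.97) and Irak4 (-0.93) were lower, but neither was called with mouse as a block in 4 libraries. The medians were -0.33, -0.12 and 0.15.

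Among 14 tested genes for other NOD-like receptors and inflammasome parts, 7 were lower and 1 higher in RANKL than in ENRI, with a median of -0.73. Aim2, a sensor of cytosolic DNA, changed by -2.13 (SE 0.54, limma adjusted p = 0.0413), the pore-forming gasdermin Gsdmd by -1.66 (SE 0.18, adjusted p = 0.00424) and Naip1, a sensor of bacterial secretion systems, by -1.58 (SE 0.29, adjusted p = 0.0164). Naip1 and its neighbours in the Naip cluster are close copies of each other, so reads could be split between them. Casp4, the caspase that binds lipopolysaccharide, went the other way, 1.12 higher against ENRI (SE 0.13, adjusted p = 0.00490) and 1.87 higher against WENRC (SE 0.13, adjusted p = 0.00181). It read 10.43 and 10.36 in RANKL, 9.30 and 9.25 in ENRI, and 8.45 and 8.60 in WENRC, without overlap. Against WENRC, Aim2 was the only lower gene (-2.36, adjusted p = 0.0446) and the median was 0.21. In WENRC against ENRI 7 were lower and 0 higher, led by Gsdmd (-2.33), Naip1 (-1.87) and Naip5 (-1.27), with a median of -0.80. The 7 lower genes of RANKL minus ENRI became 2 in a fit of those 2 cultures alone or without either WENRC library, and 0 without either RANKL library. Those of WENRC minus ENRI became 0 in a fit of the 2 cultures alone or without either RANKL library, 1 and 0 without a WENRC library, and 1 with mouse as a block in 4 libraries. Enterocyte markers moved with this list. In the fit of all 6 libraries, 5 of 9 were lower in RANKL than in ENRI and 8 of 9 lower in WENRC than in ENRI. None of those 8 was called in a fit of ENRI and WENRC alone. The part of enterocytes in the result was not tested.

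Of the 13 tested NF-kB target genes of microbial sensing, 5 were higher and 3 lower in RANKL than in ENRI, and 7 higher and 1 lower than in WENRC, with medians of 0.17 and 1.19. Icam1, a leukocyte adhesion molecule, read 9.21 and 9.09 in RANKL, 4.61 and 3.72 in ENRI, and 5.14 and 5.96 in WENRC. It was 4.98 higher against ENRI (SE 0.39, limma adjusted p = 0.00215) and 3.60 higher against WENRC (SE 0.39, adjusted p = 0.00601). Nfkbia, the inhibitor of NF-kB that NF-kB itself induces, was 1.94 higher against ENRI. Ccl20, the chemokine that draws lymphocytes to follicles, was 3.22 higher against WENRC. Reg3g, a lectin that binds peptidoglycan of Gram-positive bacteria, was 2.27 and 5.05 higher in RANKL, whereas its close relative Reg3b was lower in RANKL than in ENRI (-4.56). Reg3b read 5.38 and 5.58 in RANKL, 9.81 and 10.27 in ENRI, and 3.26 and 3.84 in WENRC, with no overlap between cultures, and was higher in RANKL than in WENRC (1.93, SE 0.28, adjusted p = 0.0122). Its order was thus ENRI, RANKL, WENRC, while Reg3g read 9.29 and 9.44, 7.20 and 6.97, and 4.08 and 4.55, highest in RANKL. The cytokine Il18 was lower in RANKL than in ENRI (-4.22) and WENRC (-1.91), and Nfkbiz, a nuclear regulator of NF-kB targets, was lower than in ENRI (-0.84). In WENRC against ENRI 6 were lower and 0 higher, with a median of -1.08, led by Reg3b (-6.49), Reg3g (-2.77) and Il18 (-2.31); with mouse as a block in 4 libraries 3 were lower. The summed goblet cell markers, given above, were also lowest in WENRC, and their part in these calls was not tested.

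Listed H3K27me3 regions lay at the pathway genes at shares near the background, and the difference was not tested. RANKL-higher regions lay over the body with 5 kb flanks at 16 of the 79 tested genes (20.3%), against 27.6% of all tested genes, and WENRC-higher regions at 9 (11.4%), against 14.1%. Of the 16, 4 (Xiap, Tab3, Ikbkg and Irak1) are on the X chromosome, which held 20.8% of all RANKL-higher and 10.6% of all WENRC-higher regions. Regions of both kinds lay at Tab3, Slc15a1, Nlrc5 and Icam1. The 12 pathway genes called higher in RANKL in both comparisons were Birc2, Birc3, Traf2, Traf3, Tnfaip3, Slc15a3, Casp4, Icam1, Nfkbia, Ccl20, Nos2 and Reg3g. Of these, 9 had no listed region of either kind there, while Slc15a3 had a RANKL-higher region, Nos2 WENRC-higher regions and Icam1 both.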

How the data were processed

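GRO-seq and H3K27me3 ChIP-seq files were used as deposited, on mm9. Per the submitters' processing notes, Bowtie2 2.3.4.1, HOMER and DESeq2 were used. Per the file headers, GRO-seq reads were summed over whole RefSeq genes, and the library columns are taken as log2 values normalized by the authors; they have the shape of a regularized logarithm, which no header names. Their depth is not given, so no counting interval could be made. The authors' log2 fold changes and p-values are from the same table, with the sign turned to the order printed here. Peak tables hold, per the file headers, regions called in one culture against the other: tag counts of the pooled RANKL libraries, and as deposited signal the WENRC tags scaled by the authors by 0.9, and the authors' fold and p-value per region. Regions of different libraries cannot be compared by replicate, because the authors pooled RANKL.

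Of 24505 genes, 2131 were at 0 in all libraries, and 16563 had at least 2 of 6 libraries at 10 or more on the linear scale. These were fitted with limma 3.58.1 (R 4.3.3; variance trend, 3 culture means in 1 fit of 6 libraries, two-sided, Benjamini-Hochberg over all 16563, called under 0.05), which was first tested on simulated data. Columns were matched to mice by their number; WENRC and ENRI libraries of the same mouse deviated together (r = 0.414 across 16563 genes), and the pairing comes from the mouse numbers in the labels. Named pathway genes are those called with the largest changes, up to 3 per list, comparison and direction; Traf2 and the lists of genes called in both RANKL comparisons were named after their values were seen; neighbours are listed genes within 20 kb. The genes and lists were chosen with earlier results of these data known. Alternatives were a fit without the filter, without the trend, on the 2 cultures compared, with other scalings, with mouse as a block, with each library left out, and the authors' calls. The result of 1 leukocyte marker is not reported here.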

Additional observations from a re-analysis of the deposited data

How the results depend on the processing

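Called pathway genes numbered 28 for RANKL minus ENRI (2 to 45 with each library left out in turn), 20 for RANKL minus WENRC (0 to 34 with each left out; 35 on those 2 cultures alone; 33 by the authors' calls) and 23 for WENRC minus ENRI (0 to 44 with each left out; 0 on those 2 cultures alone by limma, with 30 at an unadjusted p under 0.05). The ENRI and WENRC libraries are paired by mouse: with mouse as a replicate block in those 4 libraries the last count was 5, and with that block in all 6 libraries, where the RANKL libraries were given to neither mouse, no count of pathway genes moved by over 1.5 times. Members called between WENRC and ENRI ranged from 0 to 2 with each library left out. Over all genes, limma called 3464, 2012 and 2416 in the same order, and 1925, 5194 and 0 (4074 at an unadjusted p under 0.05) on the 2 cultures alone; the authors called 4604 in the second, the block in 4 libraries called 124 in the third, and leaving out each library gave 64 to 6966, 0 to 5176 and 0 to 6650. The share of calls higher in the first-named culture was 70.2% for RANKL minus WENRC, 53.3% after upper-quartile recentring, which moved the median of all genes to -0.12, and 58.7% after quantile normalization; for WENRC minus ENRI it was 33.2%, 54.1% and 51.7%. In the authors' table Pglyrp2 changed by 9.03 and 14.01 and Nod2 by 3.35 and 3.29, against RANKL minus ENRI and RANKL minus WENRC values of 7.34 and 7.72 and of 2.61 and 2.54. With each library left out, WENRC minus ENRI ran from -0.11 to 1.17 for Pglyrp1 and from -1.12 to 0.36 for Pglyrp2, reversing without the ENRI library of mouse 2, and from -0.090 to 0.23 for Nod2, reversing at -0.090 without WENRC mouse 2 and at -0.069 without ENRI mouse 2. In these fits a lone library is assumed to vary like the other groups. Named regions fell from 2 to 0 (RANKL-higher) and from 3 to 1 (WENRC-higher) within 5 kb of a start site. Except where a count of genes tested or libraries kept differs by construction, the cause was not tested. A comparison of protein sequences was not run.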

Other observations

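The 10 tested genes with the largest share of their body under WENRC-higher H3K27me3 regions included, besides Pglyrp2, the transcription factor gene Sox8, with 69.8% of 4793 bp covered. Sox8 averaged 6.95 ± 0.02 in RANKL, 2.70 ± 0.18 in ENRI and 2.89 ± 0.47 in WENRC (SD, n = 2 each), a log2 difference of 4.25 against ENRI and 4.06 against WENRC. Of the other 8, Sost (50.6% covered), which encodes the Wnt antagonist sclerostin, was 2.10 and 2.08 higher in RANKL than in ENRI and WENRC, and Akp3 (41.2%), an intestinal alkaline phosphatase gene, was 1.80 and 2.39 higher. The hormone gene Adm (64.9%) was transcribed at 6.80 in RANKL, 6.26 in ENRI and 6.89 in WENRC and was not called by limma against RANKL (adjusted p = 0.176 and 0.841). Sphk1 (41.6%), which encodes sphingosine kinase, was lower in RANKL than in ENRI (-1.61, adjusted p = 0.0110) and was not called against WENRC (0.28, adjusted p = 0.503). The genes 2810468N07Rik (52.3%; 2.90 and 2.86 higher) and Gm996 (37.1%; 1.23 and 1.07 higher) were also called higher in RANKL in both comparisons, whereas Mycn (59.3%) and Trim47 (42.4%) were not called in either. In all, 5 of the 9 genes other than Pglyrp2 were called higher in RANKL in both. Of these, Sox8, 2810468N07Rik and Sost were under the minimum level in every ENRI and WENRC library. The mean of 2810468N07Rik was 2.74 in ENRI and 2.77 in WENRC, and that of Sost 2.93 and 2.95. They were tested only because the RANKL libraries were above the minimum, so their calls could hardly go the other way. Covered genes under the minimum in all libraries were not tested and are missing from the list. Of all tested genes, 10.4% were called higher against ENRI and 8.53% against WENRC. The share called higher in both was not worked out, so these shares are no background for that count. The list was drawn up after seeing the cover of Pglyrp2, and the count was not tested.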
